A study of Mus musculus with 40 samples.

Results

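The gene set described here was 8 genes of the B cell receptor complex and of B cells more widely: Cd79a, Cd79b, Ms4a1, Pax5, Blk, Cd22, Vpreb3 and Cd72. A probe was a member when its gene symbol in the deposited fold change table was 1 of these names. All 8 genes were found, out of 29411 gene symbols on the array, through 11 probes. Levels were read on the 38 of 40 arrays whose labels did not conflict.

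The B cell receptor is a membrane immunoglobulin held together with a pair of signalling chains, encoded by Cd79a and Cd79b, whose tails carry the motifs that kinases phosphorylate when antigen binds. Src-family kinases such as the product of Blk act first, and inhibitory receptors such as CD22 and CD72 raise the threshold through phosphatases. In fat tissue, B cells are found among the stromal vascular cells, in lymphoid clusters and in the lymph nodes embedded in some depots.

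The samples were stromal vascular cells of subcutaneous fat from C57BL/6J mice, weaned at an age of 3 to 4 weeks and randomly assigned to 5 diets. LFC was a low-fat diet with 10% of its calories from fat, and HFC was a diet high in fat and sucrose with 60% of its calories from fat. HF5, HF20 and HF75 were HFC with 5, 20 or 75 µg of KAL-1, which the labels describe as an ethano-botanical formulation. LFC and HFC each had 11 arrays, 1 at each of days 1, 6, 10 and 14 and weeks 0, 3, 6, 9, 12, 15 and 18. The 6 HF5 arrays came from weeks 3 to 18, and the 5 HF20 and 5 HF75 arrays came from weeks 3 to 15. The methods count the weeks from day 14 of the diet. If the diets began at weaning, the age of the mice was the weaning age plus the time on diet. The labels speak of 5 animals killed per diet at each 3-week interval, but do not say how many mice one array represents. An array is the unit of replication, so the spread between arrays may be partly technical. The remaining 2 arrays, both of week 18, carry labels that name different diets and entered no comparison. The titles of both day 6 arrays have another prefix than the rest, and at week 9 all titles but that of HF75 contain the letters WS. The labels explain neither.

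RNA was labelled in 1 colour, hybridised to arrays with 40628 probes and read as a fluorescence intensity per probe. Throughout, a level is the log2 ratio of the intensity to the 75th percentile of its own array, so that 0 is that percentile and 1 unit is a 2-fold step. The scanner software states for each spot whether it lies well above background. The lowest level that did on an array is called its floor. A value that did not was raised to the floor where it lay lower and kept where it lay higher, and both kinds are given as bounds. The level of one probe cannot be set against that of another, so levels were compared between arrays and not between genes. The median over spots of signal over local background ranged from 1.53 to 55.4 over the arrays, and the number of arrays limits the precision.

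Defining markers were checked before the B cell genes. Among macrophage markers, Emr1, the gene of the F4/80 antigen, had levels from −0.02 to 3.29 and was well above background on 37 of 38 arrays. Csf1r, the receptor of macrophage colony-stimulating factor, was at −0.47 to 3.66, and Cd68, a lysosomal glycoprotein of macrophages, was at −2.99 to 2.31. The fibroblast collagen gene Col1a2 was well above background on all 38 arrays, Col1a1 on 36 and Col3a1 on 37. The adipocyte hormone gene Adipoq was well above background on 35 arrays, with a median of 3.14 and a highest value of 7.23 on HFC day 6, although mature adipocytes float off when stromal vascular cells are prepared. The lipid droplet genes Plin1 and Cidec reached 7.38 on LFC day 6 and 8.19 on HFC day 6. The material was thus a mixture of cell types, and the marker lists of these types are given beside the results below.

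Of the 38 arrays, 3 stood apart. LFC week 3 was dim, with a 75th percentile intensity of 7.82 and 16.8% of probes well above background, and it had a median rank correlation of 0.447 with the rest. On this array 6 of the 8 members were not well above background, 5 of them set to a floor of −0.02 and Vpreb3 kept at 0.55, and only Cd79b and Ms4a1 were measured there. LFC day 14 had 9104 spots marked as outliers and a median rank correlation of 0.471. The other 36 arrays had median rank correlations of at least 0.8, and correlations across arrays below use those 36. LFC week 18 went against its tissue label. On it the neutrophil granule gene Mpo stood at 6.62, Elane at 4.21 and S100a8 at 6.44, each the highest of 38 arrays, and so did the haem synthesis gene Alas2 at 6.51. Adipoq on LFC week 18 was at the floor of −6.78, and the mean of the 6 fibroblast markers was −5.22.

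Cd79b, the Igβ chain, was well above background on all 38 arrays and had the fullest record. Its levels ran from −2.27 to 5.23 on the 11 LFC arrays (median 2.40) and from −2.55 to 4.93 on the 11 HFC arrays (median 1.09). On the 6 HF5 arrays it ran from −1.73 to 4.06 (median 0.57). Its HF20 levels were 4.51, −1.43, −0.68, −1.01 and 0.02 at weeks 3, 6, 9, 12 and 15. In HF75 the same weeks gave 4.69, −1.73, 4.05, 4.40 and −2.04. Every diet thus held both high and low arrays, the ranges of the 5 diets overlapped, and the highest array of each diet was that of week 3. The span from lowest to highest was 7.78 on the log2 scale, or 219-fold. The summed RNA of a mixed sample does not tell fewer B cells apart from less of these RNAs per cell.

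Cd79a, the Igα chain, was well above background on 28 arrays. Among values well above background it ran from −5.99 to −1.50 on LFC and from −5.56 to −1.69 on HFC. The HF5 values well above background ran from −5.78 to −2.24. Its HF20 levels at weeks 3, 9, 12 and 15 were −2.20, −4.72, −5.16 and −4.90, and week 6 was at most −6.70. In HF75, weeks 3, 9 and 12 gave −2.72, −2.25 and −2.27, and weeks 6 and 15 gave at most −6.69 and −7.32. Cd79a was therefore high on the same HF20 and HF75 arrays as its partner chain and fell under the detection limit on several arrays on which Cd79b was low.

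Ms4a1 encodes CD20, a surface protein of B cells from the late precursor stage until they become plasma cells. It was well above background on 37 arrays, and its spot on LFC day 10 was marked as an outlier and dropped. It ran from −4.18 to 5.71 on LFC (median 0.17), from −3.79 to 4.85 on HFC (median −0.06) and from −4.43 to 4.51 on HF5 (median 0.54). Its HF20 levels at weeks 3 to 15 were 4.53, −2.56, −2.53, −1.91 and −1.12, and those of HF75 were 4.25, −4.36, 3.99, 3.65 and −3.27. The span of Ms4a1 was 10.1 on the log2 scale, and the diets overlapped. Its top of 5.71 came from the dim LFC week 3 array, and the highest HFC value was 4.85.

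The inhibitory coreceptors were Cd22, a lectin that binds sialic acid and recruits the phosphatase SHP-1, and Cd72, a C-type lectin with an inhibitory motif. Cd22 was well above background on 35 arrays and ran from −5.30 to 1.46 on LFC, from −5.10 to 2.42 on HFC and from −5.43 to 1.91 on HF5 among those. At weeks 3 to 15 its HF20 levels were 2.23, −3.91, −3.17, −4.15 and −3.76, and its HF75 levels were 1.95, −5.44, 1.82, 0.45 and −4.03. Cd72 was well above background on 37 arrays and ran from −2.86 to 1.73 on LFC, from −3.77 to 2.59 on HFC and from −2.35 to 2.80 on HF5. In HF20 Cd72 was at 2.37, −0.50, −1.57, −2.64 and −2.76 at weeks 3 to 15, and in HF75 at 1.76, −0.37, 2.33, 0.93 and −3.87. Both coreceptors were high on the 3 HF75 arrays of weeks 3, 9 and 12 and low at week 15. At week 6 they differed: Cd22 lay between −5.44 and −2.46 on the 5 arrays, at or below its median over all arrays, whereas Cd72 lay between −0.50 and 0.51, in the middle of its range. Cd72 is also transcribed in some macrophages and dendritic cells, and the cells behind its week 6 level were not examined.

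Pax5, the transcription factor that holds cells in the B lineage, and Blk, the Src-family kinase, were detected on the fewest arrays. Pax5 was well above background on 20 arrays, where it ran from −6.38 to −1.68, and Blk on 19, where it ran from −6.39 to 0.75. The highest value of each came from LFC day 14, the array with many outlier spots. Blk was under the detection limit on all 5 arrays of week 6, and Pax5 on 4 of them. Vpreb3, which encodes a protein that associates with the precursor receptor and is also made in mature B cells, was well above background on 36 arrays and ran from −5.50 to 1.92. At weeks 3 to 15 Vpreb3 was at 1.18, −3.71, −3.93, −3.76 and −3.27 in HF20 and at 0.85, −3.39, 1.27, 0.77 and −5.50 in HF75. Its highest level was on HFC week 3, and its lowest was on HF75 week 15.

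**Figure D1:**
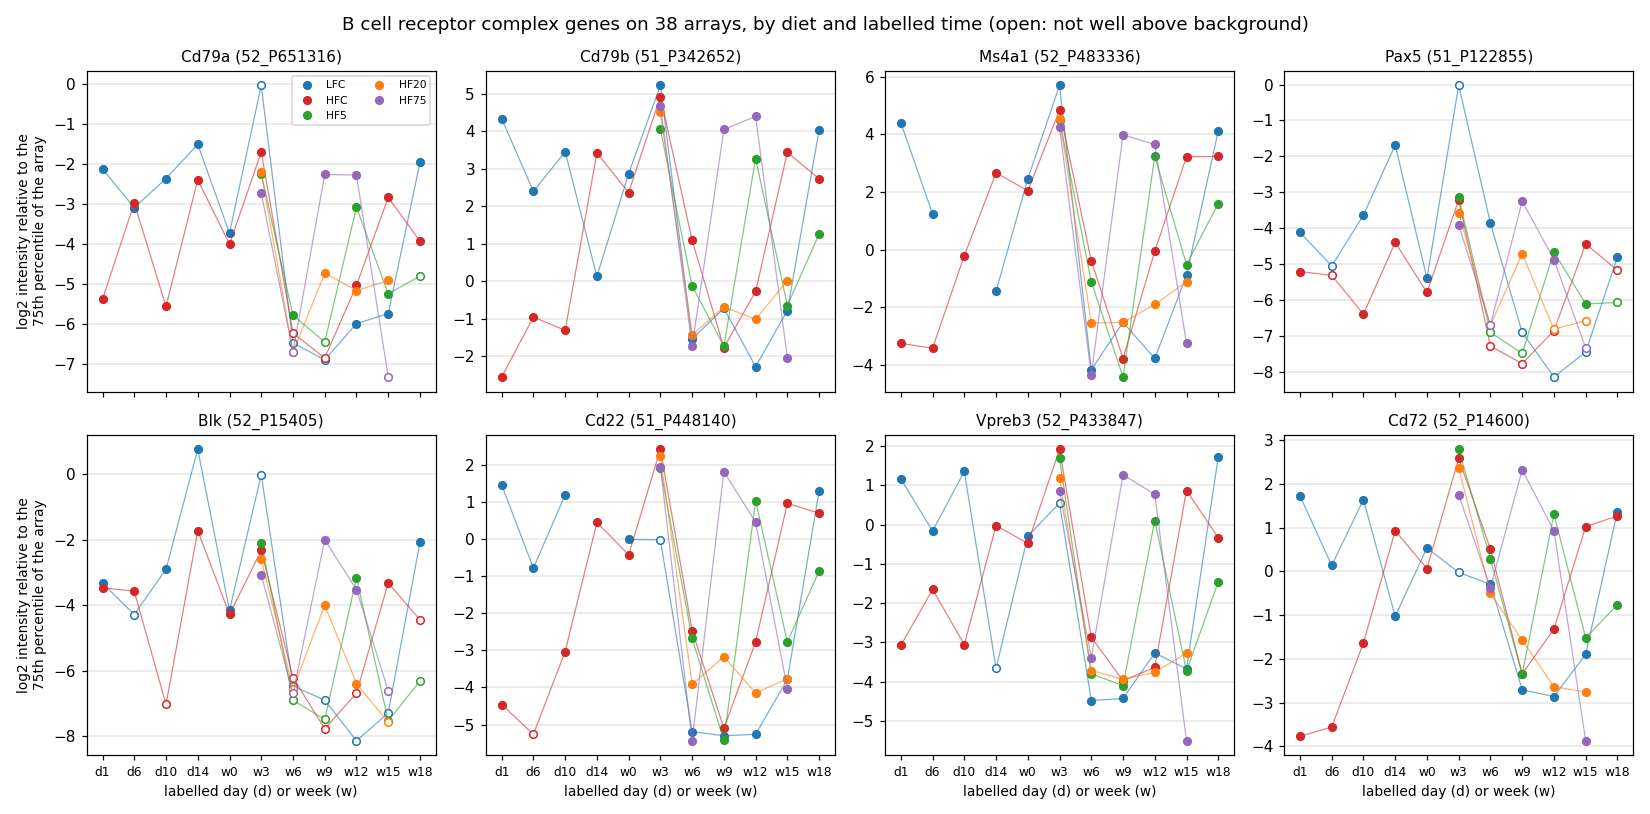
Level of each of the 8 members (vertical axes, log2) against the time label (horizontal axis), with 1 point per array coloured by diet; open points are values not well above background, at the floor of their array or above it. All 8 members were high on the week 3 arrays on which they were measured, and on HF75 week 9, where Cd79b reached 4.05 and Ms4a1 3.99.

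The 8 members moved together from array to array. Over the 36 arrays, the Pearson correlation between the levels of 2 members ranged from 0.695 (Blk with Cd72) to 0.984 (Ms4a1 with Cd22), with a median of 0.869 over the 28 pairs. In 13 of these pairs Pax5 or Blk takes part, which lay at or near the floor on many arrays, and among the other 15 the lowest was 0.730 (Cd79a with Cd72). These arrays share slides and scan days, and the correlations are a description. For the 3 members with a second probe, the pair of probes correlated at 0.796 for Cd22, 0.924 for Vpreb3 and 0.991 for Cd72, whose probes share 32 of their 60 bases. When each member was centred on its own median, the mean of the members was lowest on HF75 week 15 at −2.70. It was 3.04 on HF75 week 9, 2.77 to 3.48 on the week 3 arrays of HFC and the KAL-1 diets, and 2.76 on LFC week 18. On LFC week 3 it was at most 3.72, since 6 of the 8 values there are bounds. The mean correlated at −0.468 with the 75th percentile intensity of the array and at −0.297 with the share of probes well above background.

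The genes whose levels followed the mean of the members most closely were sought among 22212 genes that passed the background criterion on 10 or more of the 36 arrays. Among the first 10, Spib, an Ets-family transcription factor of B cells, reached a Pearson correlation of 0.981, and Cr2, a complement receptor of B cells, reached 0.977. Next came the chemokine receptor gene Ccr6 at 0.976, the transcription factor gene Bcl11a at 0.974 and the Fc receptor-like gene Fcrl1 at 0.971. Tnfrsf13c, the receptor for the survival factor BAFF, Traf3ip3, Faim3 and Slamf6 were each at 0.968. Of the first 10 genes, 8 were also among the first 10 when all 38 arrays were used, and 6 were when rank correlation was used.

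Lists of other cell types were set beside the members, each by the mean level of its genes over the 36 arrays. The mature B cell markers correlated with the members at 0.984, the B cell transcription factors at 0.964 and the genes of B cell receptor signalling at 0.960. The T cell markers followed at 0.926, the lymph node and follicle genes at 0.879, the neutrophil genes at 0.723, the B cell precursor genes at 0.708 and the immunoglobulin and plasma cell genes at 0.701. The dendritic cell markers were at 0.685, the erythroid genes at 0.294, the skeletal muscle genes at 0.173 and the macrophage markers at 0.018. Endothelial, fibroblast and adipocyte markers were at −0.190, −0.191 and −0.331. By rank correlation these 3 were at −0.0057, 0.102 and −0.228, and LFC week 18, which stands apart, is among the 36 arrays. The macrophage markers went both ways, with Emr1 at −0.225 and Csf1r at −0.249 and Cd68 at 0.018, and with Mrc1 at −0.492 and Lyz1 at 0.397, which were named after their values were seen.

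Within these lists, single genes departed from their neighbours. Among the transcription factors, Pou2af1, the octamer coactivator of B cells, correlated with the members at 0.940 and Pou2f2, the octamer factor Oct-2, at 0.849, whereas Ebf1, an early B cell factor that fat precursor cells also make, was at −0.01. Of the receptor signalling genes, the tetraspanin gene Cd81, which many cell types transcribe, was at −0.504. The low-affinity IgE receptor gene Fcer2a was at 0.965. Ighm, Ighg and Igj, genes of secreted and membrane immunoglobulin, were at 0.613, 0.549 and 0.510, and each was highest on LFC week 18. Vpreb1 and Vpreb2, the surrogate light chain genes, were at 0.686 and −0.154. The recombinase gene Rag1 was well above background on only 6 arrays.

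**Figure D2:**
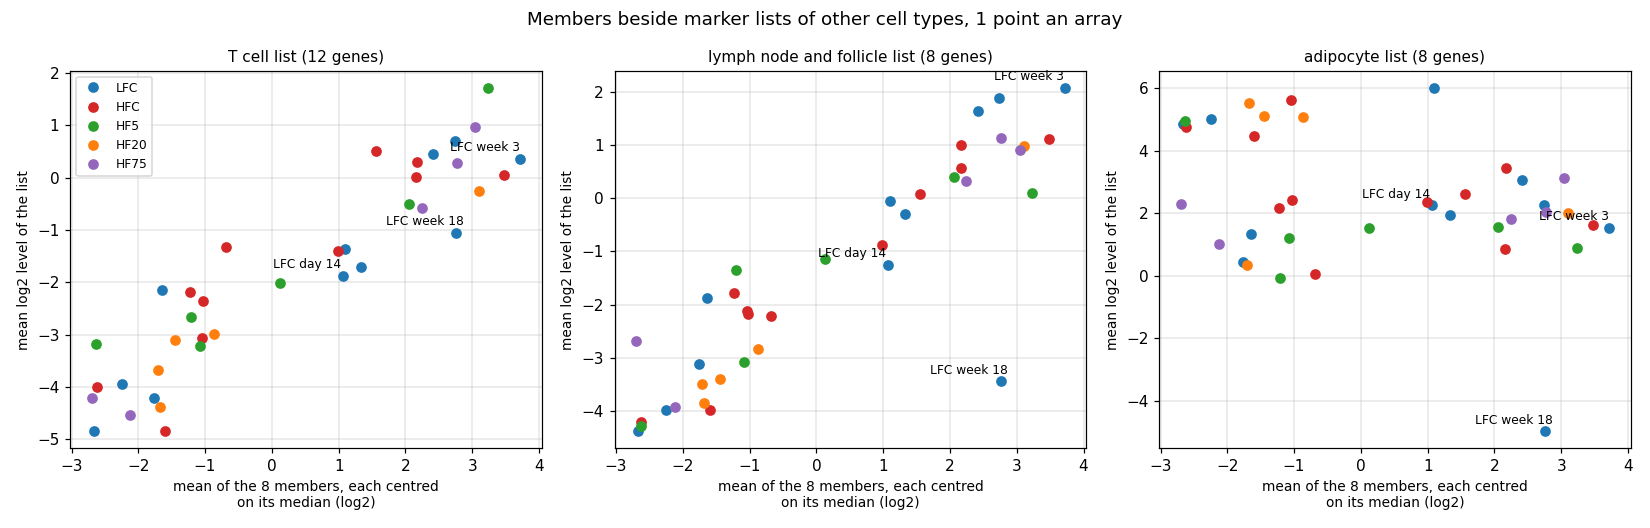
Mean of the 8 centred members on each array (horizontal axis, log2) against the mean level of a marker list (vertical axis, log2) for T cell, lymph node and adipocyte markers, with 1 point per array coloured by diet. Arrays high for the members were high for T cell markers (Pearson correlation 0.926 over 36 arrays), which adipocyte markers (−0.331) were not.

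Weeks were compared on the 25 arrays of weeks 3, 6, 9, 12 and 15, which hold 1 array of each of the 5 diets per week. At week 3 Cd79b stood at 5.23 on LFC, 4.93 on HFC, 4.06 on HF5, 4.51 on HF20 and 4.69 on HF75. On the other 20 arrays it ran from −2.27 to 4.40, and 1 of these, HF75 week 12, reached the lowest week 3 level. Cd79b was higher at week 3 by 4.70 on the log2 scale (SE 0.96, adjusted p 0.00600, limma), a 26.1-fold difference.

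For Ms4a1 the week 3 levels were 5.71, 4.85, 4.51, 4.53 and 4.25 in LFC, HFC, HF5, HF20 and HF75. None of the other 20 arrays reached these, their highest being 3.99 on HF75 week 9. Ms4a1 rose by 5.94 (SE 1.20, adjusted p 0.00600), the largest estimate of the 8 members. Cd79a was at −1.69, −2.24, −2.20 and −2.72 in HFC, HF5, HF20 and HF75, and its LFC week 3 value was raised to the floor of −0.02, as were those of Cd22, Cd72, Pax5 and Blk. Its estimate was 3.55 (SE 0.74, adjusted p 0.00634), and 2 of the other 20 arrays reached its lowest week 3 level.

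The coreceptors rose as well. Cd22 stood at 2.42, 1.91, 2.23 and 1.95 at week 3 in HFC, HF5, HF20 and HF75, above every other array of the 20, with an estimate of 4.75 (SE 0.98, adjusted p 0.00629). Cd72 stood at 2.59, 2.80, 2.37 and 1.76 in the same order, and HF75 week 9 alone among the 20 reached the lowest of these. Its estimate of 2.93 (SE 0.74) had an adjusted p of 0.0132. Vpreb3 stood at 1.92, 1.69, 1.18 and 0.85, with LFC at 0.55 but not well above background, and its estimate was 4.16 (SE 0.87, adjusted p 0.00657). Of the other 20 arrays, 2 reached the Vpreb3 level of 0.85 and 3 reached that of 0.55.

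The remaining members were Pax5, with week 3 levels of −3.21, −3.14, −3.57 and −3.91 in HFC, HF5, HF20 and HF75, and Blk, with −2.33, −2.09, −2.59 and −3.07. Their estimates were 3.46 (SE 0.79, adjusted p 0.00878) and 4.03 (SE 0.88, adjusted p 0.00755). The lowest week 3 level was reached by 2 of the other 20 arrays for Pax5 and by 1 for Blk. With values not well above background set to missing, Pax5 was at 0.85 and did not pass (adjusted p 0.2535), Cd79a was at 2.04 (0.0347), and Blk, missing on all 5 arrays of week 6, had no estimate. As weeks go, Pax5 passed the filter on dim probes only through week 3 and Blk only through weeks 3 and 12, so a high week 3 was partly a condition of their being tested. All 8 members passed the threshold upward, where 16.8% of the 32403 probes tested were higher and 20.9% were called in either direction. None of the 8 passed with the scan date as a random block, as given below. The median estimate was 4.10 for the members and 0.52 for all probes tested.

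Because the dim LFC week 3 array raises many values, the fit was repeated without it. The 8 members again passed, with adjusted p from 0.0201 to 0.0400, while the probes called in either direction fell from 6774 to 3539 and the median over all probes went from 0.52 to −0.03. Ms4a1 was then at 5.28, Cd22 at 4.72, Cd79b at 4.24, Vpreb3 at 4.07, Blk at 3.25, Cd72 at 3.18, Cd79a at 2.88 and Pax5 at 2.69. With 1 diet left out entirely, 6 members passed without HF5, 7 without HF20 and 8 without LFC, HFC or HF75. Over these 5 fits, 938 to 7291 of all probes passed. With the scan date as a random block, no member and 0 probes passed, and the members' adjusted p ran from 0.0544 to 0.0803. The estimates hardly moved in that fit, with Ms4a1 at 5.85, Cd22 at 4.71, Cd79b at 4.66 and Cd72 at 2.88. Each week was scanned on its own dates, so week cannot be told apart from sampling session or scan.

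Of the 24 genes of B cell receptor signalling, 21 were higher at week 3, 0 were lower, and the median estimate was 2.16. None of them passed with the scan date as a random block, where Siglecg and Bank1 had an adjusted p of 0.0540 and Plcg2 of 0.0607. Siglecg, an inhibitory lectin of B cells, rose by 3.61 (adjusted p 0.00527), the guanine nucleotide exchange factor gene Rasgrp3 by 1.61 and the B cell scaffold gene Bank1 by 4.40. Cr2 rose by 5.75, but with values not well above background set to missing it was at 3.75 and did not pass (adjusted p 0.0562). The signalling adaptor genes Blnk and Pik3ap1 rose by 2.65 and 2.18, and the phospholipase gene Plcg2 by 1.96. The tetraspanin gene Cd37 was higher by 3.43 and Inpp5d, the inositol phosphatase SHIP-1, by 1.74. Cd81 was at −1.09 with an adjusted p of 0.0587. It passed downward with normexp (−1.83, adjusted p 0.00359), with quantile normalization (0.0339), with missing values (0.0475) and without HF75 week 9 (0.0309), but was at −0.56 (0.287) without LFC week 3 and at −1.03 (0.195) with the scan date as a block. The genes Fcgr2b and Bcl10, named after their values were seen, were at −0.08 and 0.20 and did not pass.

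Other B lineage lists were split, and none of the genes below passed at week 3 with the scan date as a random block. Of the 13 mature B cell markers, 12 were higher at week 3, among them Fcer2a by 5.21. Of the 10 transcription factors, 8 were higher, with Pou2af1 at 4.70 and Pou2f2 at 2.93, while Ebf1 was at 0.12 with an adjusted p of 0.702. In the immunoglobulin and plasma cell list, 2 of 9 tested genes were higher and 1 was lower. Ighm was at 1.43, Ighg at 0.97 and Igj at 1.29, and none of these 3 passed. Of the B cell precursor genes, 1 of 3 tested was higher, with Vpreb1 at 1.30 (adjusted p 0.0575) and Vpreb2 at 0.50, and Rag1 was too dim to be tested.

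Markers of T cells moved with the members at week 3. All 12 of 12 T cell markers were higher, with a median of 3.38, but none passed with the scan date as a random block. Cd3d rose by 3.73, Cd3e by 1.69 and Cd3g by 3.19. The summed level of the T cell list, in units of the 75th percentile intensity of the array, was 25.6 on HFC, 89.4 on HF5, 20.5 on HF20 and 31.8 on HF75, and 20.2 on LFC, where only Cd3d was well above background. The Cd3d probe added most to the sum on each of the 5 arrays, which describes the sum and is no measure of abundance. On the other 20 arrays the sum ran from 0.489 to 50.6 with a median of 2.10.

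Lymph node and follicle genes moved as well, with 6 of 8 higher at week 3, though none with the scan date as a random block. Glycam1, a sialomucin of lymph node endothelium, rose by 8.84, while the chemokine genes Cxcl13 and Ccl19 were at 1.27 and 1.17 and did not pass. The list summed to 73.5 on HFC, 58.2 on HF5, 67.2 on HF20 and 108.7 on HF75, and to 199.6 on LFC, where 4 of 8 were well above background. The Glycam1 probe added most to the sum on 4 of these arrays and the Ccr7 probe on HF5, where Madcam1 and Chst4 were not well above background. On the other 20 arrays the list summed to between 1.76 and 67.7 with a median of 11.8. The mature B cell markers summed to 85.4, 102, 75.8 and 62.4 on HFC, HF5, HF20 and HF75 at week 3, with all 13 well above background and the Ltb probe adding most, against a median of 7.64 on the other 20 arrays.

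Myeloid and stromal lists did not share this pattern in full, and none of their calls at week 3 held with the scan date as a random block. Of 6 neutrophil genes, 4 were higher at week 3, among them Mpo by 2.37 and S100a8 by 2.81, and Elane at 0.89 did not pass. Their sum was 39.7 on HFC, 130 on HF5, 34.9 on HF20, 22.0 on HF75 and 502 on LFC, with the S100a9 probe adding most throughout. Of 7 dendritic cell markers, 3 were higher, with Flt3 at 1.96 and past the threshold and Itgax at 1.43 and Zbtb46 at −0.30 short of it. The dendritic list summed to 20.6, 9.44, 25.2 and 22.1 on HFC, HF5, HF20 and HF75, with the Bst2 probe adding most. Xcr1 was not well above background on HF5 and HF75, and none of the 7 were on LFC.

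Of 10 macrophage markers, 0 were higher and 3 were lower, among them Emr1 at −0.73 and Csf1r at −1.05, and Cd68 at −0.50 did not pass. None of the 8 adipocyte markers passed at week 3, with Adipoq at −1.18, Plin1 at −1.67 and Cidec at −0.92. Among fibroblast markers, 1 of 6 was lower, and Col1a1, Col1a2 and Col3a1 were at 0.06, 0.09 and −0.33. The 6 endothelial markers, among them Pecam1 at 0.28, Cdh5 at −1.34 and Kdr at −1.02, gave 0 calls. So did the 3 tested erythroid genes, with Hba-a1 at −1.18, Hbb-b1 at −0.76 and Alas2 at −0.17, and the 4 muscle genes, with Acta1 at −0.05, Ckm at 1.51 and Myh4 at 2.33. The part of T cell, lymph node and neutrophil RNA in the members' week 3 levels was not tested.

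At week 6, 7 of the 8 members had negative estimates. Ms4a1 lay at −4.18, −0.39, −1.12, −2.56 and −4.36 on LFC, HFC, HF5, HF20 and HF75, and Cd79b lay at −1.54, 1.09, −0.12, −1.43 and −1.73. Against the other weeks, Ms4a1 was at −3.18 (adjusted p 0.0969), Cd79a at −2.19 (0.0620) and Cd72 at 0.47 (0.731). No member passed at week 6, where limma called 11.2% of probes, and 4.88% of probes as lower. The members at an unadjusted p under 0.05 were Cd79a, Cd79b, Ms4a1, Cd22 and Vpreb3, so 5 of the 8, as were 8323 of all 32403 probes. With week 9 left out, 3 members passed, as did 2927 of 31298 probes. Of the 24 receptor signalling genes, 2 were lower. Rasgrp3 fell by 1.53 (adjusted p 0.00145) and Siglecg fell by 2.16 (0.0414). Siglecg passed in 1 of 5 fits with a diet left out, and ran from −2.43 to −1.57 in them. Other lists moved in the same week. Of the adipocyte markers, 7 of 8 were lower, and of the macrophage markers 2 of 10 were higher, Csf1r by 1.18 (adjusted p 0.00662). Of the B cell transcription factors 2 of 10 were lower, and Ebf1, which did not follow the members over the arrays, fell by 1.71 (adjusted p 5.65e-05). T cell markers had 0 of 12 estimates above 0 (median −1.58, 1 called lower), lymph node genes 1 of 8 (median −1.59, 2 lower) and neutrophil genes 0 of 6 (median −1.77, 0 lower). Their part in the members' values was not tested.

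Weeks 9, 12 and 15 had no member past the threshold. There limma called 0.00309% of probes at week 9, 1 probe, and 0.0% at weeks 12 and 15, with 5719, 966 and 2053 probes at an unadjusted p under 0.05. At week 9 the 4 arrays other than HF75 were low for the members, with Ms4a1 at −2.53 on LFC, −3.79 on HFC, −4.43 on HF5 and −2.53 on HF20, and HF75 was at 3.99. These 4 are the arrays with WS in their titles, so diet cannot be told apart from that difference at week 9. At week 12 the same gene was at 3.24 on HF5 and 3.65 on HF75 but at −3.79, −0.06 and −1.91 on LFC, HFC and HF20. At week 15 HFC alone was high, at 3.23, with LFC, HF5, HF20 and HF75 at −0.90, −0.52, −1.12 and −3.27.

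Tested over all 5 weeks at once, 6 of the 8 members differed between weeks, where 13.7% of probes did. Cd79a, Cd79b, Ms4a1, Blk, Cd22 and Vpreb3 had adjusted p from 0.0202 to 0.0371, and Cd72 (0.0514) and Pax5 (0.0525) did not pass, while the second Cd72 probe did (0.0423). Of the genes of B cell receptor signalling, 15 of 24 passed. With 1 diet left out, the members past the threshold were 0 without LFC, HFC, HF5 or HF20 and 8 without HF75, where 3565, 733, 670, 1144 and 4560 probes passed. With the scan date as a random block, 0 members passed and the 4440 probes called became 301. Between the 5 diets no member differed, with 0.0% of probes called by limma and 3247 at an unadjusted p under 0.05.

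LFC and HFC were also set side by side at each of their 11 time labels, where each diet has 1 array and a difference has no replicate error. At day 1 HFC was low. Ms4a1 was at 4.41 on LFC and −3.26 on HFC, a difference of −7.67, and Cd79b was at 4.34 and −2.55, a difference of −6.89. Cd22, Cd72, Vpreb3 and Cd79a differed by −5.92, −5.50, −4.24 and −3.26, Pax5 by −1.09 and Blk by −0.14. Thus 7 of the 8 members were at least 2-fold lower on HFC, where 20.2% of genes were. The LFC and HFC arrays of day 1 lay on different slides and were scanned on different dates, so diet cannot be told apart from these there. At days 10 and 14 and weeks 6, 12, 15 and 18 the LFC and HFC arrays shared a scan date but lay on different slides. Diet cannot be told apart from slide at those labels.

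Day 6 and day 10 had the same direction for most members. At day 6, 5 of 7 members with a difference were at least 2-fold lower on HFC (12.7% of genes), Ms4a1 by −4.67 and Cd79b by −3.35, whereas Cd79a differed by 0.12. The 75th percentile intensity was 159.7 on HFC and 390.3 on LFC at day 6, and 40.6% of genes were at least 2-fold higher on HFC. With normexp 10.8% of genes were higher, 4 of 6 members were lower (8.35% of genes), and the members' median went from −3.35 to −1.49. With quantile normalization 6 of 6 members were lower (17.0% of genes). At day 10, all 7 with a difference were at least 2-fold lower (13.0% of genes), among them Cd79b by −4.76 and Vpreb3 by −4.40. The T cell list followed the members at these labels, with sums of 39.0 on LFC and 0.577 on HFC at day 1, 10.4 and 2.08 at day 6, and 31.2 and 4.12 at day 10. The lymph node list did so too, with 96.7 and 0.679 at day 1, 34.9 and 5.34 at day 6, and 97.0 and 8.87 at day 10. Their part in the members' differences was not tested.

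At day 14, where the LFC array stood apart, 2 of 7 members were at least 2-fold lower on HFC and 4 were at least 2-fold higher, and 40.5% and 38.7% of genes were. At week 0 the 2 arrays shared a slide and all 8 differences lay between −0.50 and −0.12. None of the 8 reached 2-fold there, where 2.1% of genes were lower and 4.35% were higher by that much. With normexp 3 of the 8 were at least 2-fold lower at week 0, where 34.3% of genes were, and 2 were above 0. At week 3, Cd79b and Ms4a1 differed by −0.30 and −0.86, Cd22, Vpreb3 and Cd72 by at least 2.45, 1.37 and 2.62 against LFC values not well above background, and 3 of 5 members with a difference were thus at least 2-fold higher (11.4% of genes). The LFC array of this label is the dim one, so these bounds rest on it. With normexp, 5 of 5 members with a difference were at least 2-fold higher on HFC, where 17.8% of genes were, and 0 were below 0.

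From week 6 to week 15 the members' median difference lay above 0, at 2.12, 0.20, 1.78 and 4.04 in order of weeks. At week 18 it was −1.09. Single members went both ways at weeks 6, 9 and 12. At week 6, 4 of 6 members were at least 2-fold higher on HFC (12.1% of genes), among them Ms4a1 by 3.79, and 1 was lower (11.9%), Pax5 by at least 3.41, since HFC lay at its floor. At week 9, 2 of 5 were lower (7.89%), Cd79b by −1.05 and Ms4a1 by −1.26, and the other 3 were above 0. With normexp 0 were lower and 3 were higher, where 37.3% of genes were higher. At week 12, 4 of 6 were higher (23.2%), Ms4a1 by 3.73 and Cd79b by 2.01. The LFC array of week 12 had the lowest mean levels of the T cell list (−4.85) and of the lymph node list (−4.38). The part of these lists in the differences at week 12 was not tested.

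At week 15 all 8 members were at least 2-fold higher on HFC, where 7.32% of genes were. Cd22 was at −3.78 on LFC and 0.96 on HFC, a difference of 4.74, Vpreb3 differed by 4.54, Cd79b by 4.22, Ms4a1 by 4.12, Cd72 by 2.92 and Cd79a by 2.91. Blk and Pax5 were under the detection limit on LFC and differed by at least 3.96 and 3.00. The T cell list summed to 4.20 on LFC and 24.3 on HFC at that label, and the lymph node list to 13.1 and 42.4. At week 18, 4 of 8 members were at least 2-fold lower on HFC (20.7%), Vpreb3 by −2.05 and Cd79a by −1.97, but the LFC array of week 18 is the one that goes against its label.

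**Figure D3:**
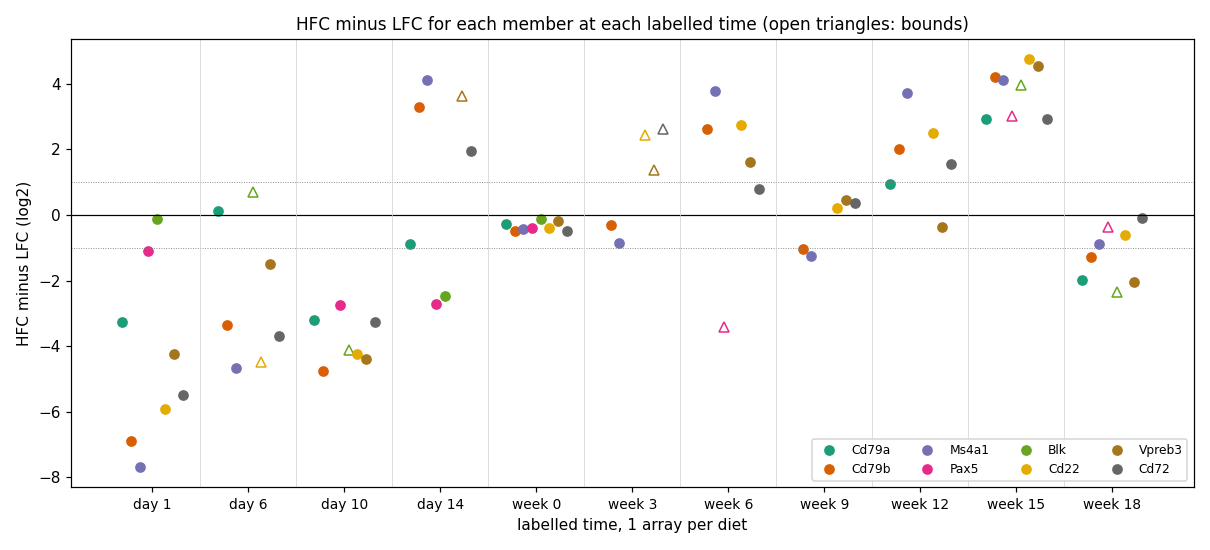
Difference in level between the HFC and the LFC array (vertical axis, log2, HFC minus LFC) for each member at each of the 11 time labels (horizontal axis), with 1 point per member; open triangles are bounds. The members lie below 0 at days 1 and 10, with Ms4a1 at −7.67 at day 1, close to 0 at week 0, and above 0 at week 15.

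Taken over the 11 labels as pairs, no member differed between HFC and LFC by limma, where 0.0% of 29215 probes passed and 820 had an unadjusted p under 0.05. Cd79b had an estimate of −0.55 (SE 0.91, 95% interval −2.49 to 1.40, adjusted p 0.954). Pax5 was lowest at −0.98 (SE 0.55, interval −2.15 to 0.19, adjusted p 0.941), and Ms4a1 was near 0 with an interval from −2.33 to 2.33. Ms4a1 and Cd22 had 10 LFC values each. The Ms4a1 estimate lacks day 10, where all 7 members with a difference were at least 2-fold lower on HFC. The median was −0.42 for the 8 members and −0.08 for all probes, and the members' median ran from −0.93 to 0.18 with 1 label left out. The interval of Ms4a1 spans over 4-fold in either direction, and differences of both signs were averaged. Without LFC day 14, week 3 and week 18 and their partners, Cd79b was at −0.96.

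The KAL-1 diets were set against HFC at the same weeks. At week 3 the differences in Cd79b were −0.87, −0.41 and −0.24 for HF5, HF20 and HF75, and those in Ms4a1 were −0.34, −0.32 and −0.60. On HF5, scanned on the same date as HFC, 5 of the 8 members were below HFC at week 3 and 3 were above. None of the 8 was at least 2-fold lower on HF5, where 21.0% of genes were. On HF20 and on HF75 all 8 members were below HFC at week 3, and both arrays were scanned on another date than HFC. On HF20 0 were at least 2-fold lower (9.25% of genes). On HF75 2 were (5.58%), Cd79a by −1.03 and Vpreb3 by −1.07. With normexp 6 were below HFC and 2 above on HF20, and 4 were below and 4 above on HF5 and on HF75. At week 6, HF20 and HF75 were lower, with 4 of 5 members at least 2-fold lower on HF20 (17.4% of genes) and 3 of 5 on HF75 (21.6%), Ms4a1 by −2.17 and −3.96. HF5 at week 6 differed in Ms4a1 by −0.73. The HF75 array of week 6 was scanned on another date than the HFC array.

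At week 9, all 8 members were at least 2-fold higher on HF75 than on HFC, where 27.5% of genes were. Ms4a1 differed by 7.78, Cd22 by 6.93, Cd79b by 5.82, Vpreb3 by 5.24 and Cd72 by 4.67, and Blk, Cd79a and Pax5 by at least 5.76, 4.59 and 4.52. With normexp 5 of the 8 were, and 9.94% of genes. On HF20, 6 of 8 were at least 2-fold higher at this week (31.4%), 3 of them bounds because HFC was not well above background, and Cd79b differed by 1.09. This did not hold under other scalings: with normexp 0 of 5 were higher and 2 lower (1.13% and 26.6% of genes), and with quantile normalization 1 of 7 was higher and 1 lower (10.9% and 11.8%). The HF75 array of week 9 was scanned on another date than the other 4 of its week and lacks the WS of their titles, so dose cannot be told apart from either here. Its T cell list summed to 50.6 and its lymph node list to 67.7, the former against 1.24 on HFC, and the part of these in the difference was not tested.

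At week 12, all 8 members were at least 2-fold higher on HF5 (12.0% of genes) and on HF75 (15.3%). With normexp 5 of 6 were on each, where 3.36% and 5.79% of genes were. Cd22 and Cd79b differed by 3.80 and 3.54 on HF5 and by 3.23 and 4.66 on HF75. On HF20 the same genes differed by −1.38 and −0.74. The T cell list summed to 4.35 on HFC, 16.4 on HF5, 0.902 on HF20 and 17.3 on HF75, and the lymph node list to 8.37, 46.6, 2.33 and 40.9. On HF20, 6 of 7 members with a difference were already below HFC at week 12. At week 15 all 8 members were at least 2-fold lower than on HFC in HF5 (8.07% of genes), HF20 (19.4%) and HF75 (11.9%), a turn for HF5 and HF75 only. Vpreb3 differed by −4.59, −4.14 and −6.37 on these diets and Ms4a1 by −3.75, −4.35 and −6.49. The 3 differences share the 1 HFC array of week 15, which was itself higher than LFC. On HFC, HF5, HF20 and HF75 the T cell list summed to 24.3, 3.09, 1.99 and 1.15 at week 15. The lymph node list summed to 42.4, 14.9, 2.24 and 19.1 in that order. The part of these lists in the differences was not tested. At week 18, 5 of 6 members were at least 2-fold lower on HF5 (12.1% of genes), Cd72 by −2.03.

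Over the shared weeks as pairs, no member passed against HFC in limma for any dose. For HF5, 0.0% of 29200 probes passed (1507 at an unadjusted p under 0.05), and Cd79b was at −0.68 (95% interval −2.58 to 1.22, 6 pairs). For HF20, 0.0% of 30831 probes passed (3649 at an unadjusted p under 0.05), with Ms4a1 at −1.49 (SE 0.76, interval −3.32 to 0.35, adjusted p 0.411, 5 pairs) and Cd79b at −1.20. For HF75, 1.01% of 28910 probes passed (4208 at an unadjusted p under 0.05), and Cd79b was at 0.39 (interval −3.48 to 4.25). The members' medians were −0.42, −1.16 and 0.34 in HF5, HF20 and HF75, with Blk not tested in HF5 and Pax5 not tested in HF20 because they were too dim. With 1 week left out these medians ran from −1.34 to 0.18, from −1.52 to −0.35 and from −0.93 to 1.70. Leaving out week 9 turned the HF75 estimate of Cd79b to −0.97, and leaving out week 12 turned it to −0.68. Leaving out single weeks moved the 293 probes called for HF75 to 0, 8, 207, 92 and 35 without weeks 3, 6, 9, 12 and 15.

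Because the members move together, their promoters are printed for the 5 with an entry in the RefSeq table of build GRCm38.p6, from 250 bases before to 50 bases after the gene start. Cd79b, Ms4a1 and Blk had no entry in the copy of the table used here, which does not show that the annotation lacks them. The letters of 5 motifs, chosen after the levels were seen, were searched on both strands: the octamer ATTTGCAT, the PU.1 word GAGGAAGT, a split palindrome of 10 bases bound by EBF, the E box CAGGTG and the TATA box TATAAA. Capitals mark the matches, which do not overlap. Of all 32851 promoters in the table, 1.74% hold the octamer, 3.20% the PU.1 word, 0.904% the EBF word, 20.2% the E box and 13.6% the TATA box. The sequences run 5′ to 3′ on the strand of the gene: Cd72 at chr4:43454577-43454876 (minus strand), Pax5 at chr4:44710645-44710944 (minus), Cd79a at chr7:24897247-24897546 (plus), Cd22 at chr7:30878979-30879278 (minus) and Vpreb3 at chr10:75948050-75948349 (plus).
Cd72: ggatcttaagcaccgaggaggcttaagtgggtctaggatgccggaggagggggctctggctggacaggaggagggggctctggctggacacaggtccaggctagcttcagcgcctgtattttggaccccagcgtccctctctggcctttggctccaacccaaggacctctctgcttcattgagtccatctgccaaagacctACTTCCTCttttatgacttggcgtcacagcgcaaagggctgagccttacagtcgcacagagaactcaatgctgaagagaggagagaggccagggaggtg
Pax5: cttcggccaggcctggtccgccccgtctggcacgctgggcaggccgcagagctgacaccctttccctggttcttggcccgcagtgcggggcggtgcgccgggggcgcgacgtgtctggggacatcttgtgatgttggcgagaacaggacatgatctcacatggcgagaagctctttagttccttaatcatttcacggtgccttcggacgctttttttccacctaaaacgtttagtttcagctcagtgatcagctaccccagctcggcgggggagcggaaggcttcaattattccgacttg
Cd79a: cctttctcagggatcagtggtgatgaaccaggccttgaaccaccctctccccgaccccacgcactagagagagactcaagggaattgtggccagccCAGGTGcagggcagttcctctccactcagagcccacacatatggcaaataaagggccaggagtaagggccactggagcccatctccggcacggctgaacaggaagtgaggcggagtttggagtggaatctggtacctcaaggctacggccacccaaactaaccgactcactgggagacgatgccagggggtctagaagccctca
Cd22: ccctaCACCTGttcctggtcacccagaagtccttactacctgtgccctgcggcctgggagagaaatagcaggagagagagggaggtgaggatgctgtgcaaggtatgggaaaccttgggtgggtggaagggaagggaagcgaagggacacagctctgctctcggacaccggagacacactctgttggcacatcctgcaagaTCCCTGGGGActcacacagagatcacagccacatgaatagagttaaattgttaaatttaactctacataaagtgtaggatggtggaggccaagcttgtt
Vpreb3: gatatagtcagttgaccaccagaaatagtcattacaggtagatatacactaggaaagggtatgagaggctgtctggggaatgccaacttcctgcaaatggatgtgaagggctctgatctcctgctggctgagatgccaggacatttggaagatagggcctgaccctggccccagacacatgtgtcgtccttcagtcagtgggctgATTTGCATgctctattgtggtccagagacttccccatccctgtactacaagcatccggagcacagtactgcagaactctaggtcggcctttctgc

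The octamer was found once, in Vpreb3, with its first base at −45 from the gene start. The PU.1 word was found in Cd72 at −49 on the opposite strand, and the EBF word in Cd22 at −49. The E box was found in Cd79a at −154 and, on the opposite strand, in Cd22 at −245. The TATA box was in none of the 5, and the Pax5 promoter held none of the 5 motifs and had 23 CpG dinucleotides, against a median of 7 over all promoters. A match describes letters in this window only.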

How the data were processed

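One-colour arrays of 40628 probes were read for 40 samples, 38 of which entered the comparisons. The authors deposited, per the file headers, a processed intensity for each spot with background already subtracted, and a fold change table, whose log2 ratios to the matching LFC array were not used. Spots marked as outliers were dropped, replicate spots of a probe were averaged, and the log2 intensity was set relative to the 75th percentile of its array. The floor of an array was the lowest level that the scanner software placed well above background, and lower values that it did not were set to the floor. The median signal over local background of an array ranged from 1.53 to 55.4.

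Each gene was represented by 1 probe. Diets were compared in limma with the time label as a pair, and weeks and diets in limma on the 25 arrays of weeks 3 to 15 with both as factors, each week against the mean of the other weeks. Dim probes were filtered: a pair comparison kept those well above background on 50% of the arrays of either diet, and the 25-array fit those with 3 of the 5 arrays of any week or diet. The threshold was a Benjamini-Hochberg adjusted p of 0.05, and intervals are at 95%. The code was tested on simulated data. HFC and LFC were also set side by side at each label with a 2-fold step. Correlations used the 36 arrays with a median rank correlation of at least 0.8.

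The 16 gene lists, of which the members are 1, were chosen with earlier results of these data known. Named genes were the first 10 by adjusted p of the B cell receptor signalling list in a comparison, besides Cr2 and Cd81. From each other list they were the first 3 in list order that were well above background on at least 1 array. Some genes that this rule would name are not reported here. Alternatives were normexp with an offset of 50, quantile normalization, no floor, missing values, no filter, other probes, slide or scan date as a block, and arrays left out. Tools were Python 3.11.15, NumPy 2.4.6, pandas 2.3.3, SciPy 1.17.1, matplotlib 3.10.9, R 4.3.3 and limma 3.58.1.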

Additional observations from a re-analysis of the deposited data

Results flagged for a closer look

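On the HF20 array of week 3, 4 members lay far above the other 4 HF20 arrays: Cd79b at 4.51, Ms4a1 at 4.53, Cd22 at 2.23 and Vpreb3 at 1.18. Each is past the critical value of Dixon's test for a single outlying array. Of 24 groups looked at (8 members in 3 diets), 4 were past it, and chance alone puts about 1 in 20 groups past it. The 4 values come from 1 array and are not independent. The members were also high at week 3 in the other diets.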

How the results depend on the processing

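The 293 probes called for HF75 with HFC became 179 with values not well above background set to missing, 145 without the filter on dim probes, and 1 with no replicate block, that is, not paired. Leaving out 1 week gave 0 to 207. Over the tested probes, the deviations of the 2 arrays of a pair from their diet means correlated above 0.1 in 8 of 11 HFC and LFC pairs, 6 of 6 HF5 pairs, 3 of 5 HF20 pairs and 3 of 5 HF75 pairs.

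At week 3 the 6774 probes became 21131 with normexp, 3539 without LFC week 3 and 0 with scan date as a random block, and 938 to 7291 with 1 diet left out. The 8 members became 0 with scan date and 6 to 8 with 1 diet left out. The median over all probes was 0.52, and −0.03 without LFC week 3.

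At week 6 the 3618 probes became 6870 without LFC week 3 and 1223 with scan date, and 1796 to 4685 with 1 diet left out. The 0 members became 1 with quantile normalization, 1 with no floor, 1 without LFC week 3 and 3 with week 9 left out. For scale, 11.2% of all probes passed in the main fit, and the 1 member without LFC week 3 stood beside 6870 probes. At week 9 the 1 probe became 5 with normexp, 249 with quantile normalization, 286 with no floor, 1311 with missing values, 1493 without LFC week 3, 0 with scan date and 1043 without HF75 week 9, and 0 to 128 with 1 diet left out. At week 12 the 0 probes became 0 to 1 with 1 diet left out. At week 15 the 0 probes became 1 with normexp, 1 with missing values and 5 without LFC week 3.

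Between weeks, the 4440 probes became 20887 with normexp, 6870 with missing values, 6924 without LFC week 3, 301 with scan date and 6726 without HF75 week 9, and 670 to 4560 with 1 diet left out. The 6 members became 0 with scan date and 0 to 8 with 1 diet left out. Between diets, the 0 probes became 0 to 2 with 1 week left out.

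The sign of the Cd79b estimate over pairs reversed in 3 comparisons. HFC with LFC went from −0.55 to 0.079 with normexp, with a range of −1.02 to 0.089 with 1 label left out. HF75 with HFC went from 0.39 to −0.97 with week 9 left out, with a range of −0.97 to 1.85. HF5 with HFC ranged from −1.52 to 0.0037. The cause was not tested.

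With normexp, the members at least 2-fold lower on HFC became 1 at day 14, 3 at week 0, 0 at week 9 and 2 at week 18, where 25.4%, 34.3%, 4.31% and 13.5% of genes were lower. Those higher became 5 at week 3 and 3 at week 9, where 17.8% and 37.3% of genes were higher. Quantile normalization gave 1 lower at week 9. Of the 10 genes most like the members, 6 were shared with Spearman correlation.

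Leaving out LFC week 18, LFC day 14 with weeks 3 and 18, and HF75 week 9 was chosen after the data were seen. Slide as a block and within slide could not be run for HF20 and HF75 with HFC, nor scan date for HF5 with HFC.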

Other observations

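The 2 week 18 arrays with conflicting labels entered no comparison. One had 21710 outlier spots, with Cd79b at 0.45 and Ms4a1 at 0.21 and 4 members dropped. On the other Cd79b was at −1.62, Ms4a1 at −1.59, Cd79a at −4.92, Cd22 at −3.87, Vpreb3 at −3.47 and Cd72 at −1.98.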
